A study of Capra hircus with 3 samples.

Results

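The cells described here are 2017 of the 6931 cells of the E90 library (29.1%, exact 95% interval 28.0% to 30.2%) from goat fetal skin, out of 20676 cells in the series. They were chosen on 14 genes. A cell had to hold a unique molecular identifier (UMI, a single counted transcript) of at least 3 of LHX2, SEMA3E, AK8, CHGA, PDGFA and SOX9, and the summed level of KRT1, KRT10, KRTDAP, SBSN, DSG1, DSC1, CALML5 and KRT4 had to be below 100 per 10000 UMIs. They are called follicle-gene cells below, after the rule, because the other genes do not settle the working name of follicle epithelium, as the clusters below show. All of them are compared with the other 4914 E90 cells.

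The series holds 1 droplet-based 3′ library for each of E60, E90 and E120 (embryonic days), from back skin of fetuses of the Northern Shaanxi White Cashmere Goat, with no treatment or genotype contrast. Cells of 2 or more fetuses per stage were prepared apart and pooled before they were barcoded, and the table does not tell the fetuses apart. E60 and E90 were whole skin taken apart with collagenase IV and pipetting. E120 was follicles picked with forceps out of collagenase-treated skin and then dissociated with TypLE Express. No group has a replicate, so no difference below can be set against the spread between fetuses, none has a test, and every interval is an exact 95% interval of counting error only.

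Hair follicles begin as placodes, thickenings of the fetal epidermis that signal to the dermis below and grow down as a germ and then a peg. Epithelium of the placode and germ is known for the transcription factors LHX2 and SOX9 and for PDGFA, a growth factor whose receptor sits on dermal cells. SEMA3E encodes a secreted semaphorin that acts on plexin D1, AK8 an adenylate kinase found in ciliated cells, and CHGA the granule protein chromogranin A of neuroendocrine cells. The 8 genes of the ceiling belong to differentiating layers of the epidermis and periderm.

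Follicle-gene cells were somewhat deeper than the rest. The median was 4040 UMIs per cell, with 1274 genes, against 3616 UMIs and 1176 genes in the other E90 cells. Their median share of mitochondrial UMIs was 11.3%, close to the 11.1% of the rest. The lowest UMI count of any E90 cell was 3000. All cells were deep enough to be thinned to 2000 UMIs. At that depth 773 cells (11.2%) met the rule, and 770 of them were among the 2017. Membership therefore moved with depth. Of all E90 barcodes 22 also occurred in another library, 5 of them in follicle-gene cells.

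Most follicle-gene cells passed narrowly. Exactly 3 of the 6 genes were found in 1249 cells (61.9%), 4 in 592, 5 in 155 and all 6 in 21. Another 1904 cells below the ceiling held exactly 2. The ceiling removed 94 of the 2111 cells with 3 or more genes. It left 10 cells with a suprabasal sum of 90 to under 100 inside and 13 cells with a sum of 100 to under 110 outside. The most frequent combination was SEMA3E, PDGFA and SOX9, in 381 cells (18.9%). Next came the same 3 with LHX2, in 354 cells (17.6%), and LHX2, PDGFA and SOX9, in 274 cells (13.6%).

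The values of the 6 genes are a description, since they chose the cells. Levels are UMIs of a gene per 1000000 UMIs of a group (CPM). LHX2 stood at 311 CPM (299.9 to 322) in follicle-gene cells and 66.8 CPM (63.3 to 70.4) in the rest, with a UMI in 71.0% and 20.5% of cells. SEMA3E stood at 332 and 87.5 CPM, with a UMI in 73.0% and 24.6%. PDGFA stood at 305 and 93.3 CPM, with a UMI in 77.2% and 28.2%. SOX9 was the most widespread outside, at 521 and 237 CPM, with a UMI in 88.9% and 50.1%. AK8 (59.3 and 7.88 CPM) and CHGA (44.8 and 6.96 CPM) were carried by few cells, 21.3% and 16.3% of the follicle-gene cells and 3.09% and 2.58% of the rest. The ceiling removed cells with high suprabasal levels but not the genes themselves. KRT1 still had a UMI in 97.1% of the follicle-gene cells, at 1185 CPM against 2435 CPM in the rest.

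To see which cells the rule selected, the whole E90 library was clustered without the 14 rule genes, which gave 23 clusters. The share of follicle-gene cells ranged from 0.597% to 87.6% among them. The highest share was in a cluster of 121 cells led by TAC1, the rule gene SEMA3E itself, LMCD1, PIK3C2G and NPPC, where 106 cells met the rule (87.6%, 80.4% to 92.9%). A cluster of 563 cells led by the mitotic genes CENPF, NEK2, PRC1 and CCNB2 followed with 54.4% (50.1% to 58.5%). Then came a cluster of 306 cells led by the hair keratin gene KRT85 (42.5%), one of 118 cells led by SPP1 and KRT7 (41.5%) and one of 779 cells led by IGFBP6, COL17A1 and KRT14 (39.7%). None of these 5 earned a cell type name from the marker lists, although some passed several markers. The TAC1-led cluster passed 6 basal epithelium markers, KRT15, TP63, ITGA6, COL17A1, LAMB3 and CDH1, and the IGFBP6-led one passed 2. The KRT85-led cluster passed 4 suprabasal and the SPP1-led 4 periderm markers, and the CENPF-led passed 0. Of the periderm markers passed, KRT7, KRT8 and KRT19 are also on the sweat gland list. Those lists had an outer root sheath class but no placode or germ class, so a cluster could not be named as placode or germ. Placode and germ genes or late shaft genes among the leading genes could still withhold a name. In the TAC1-led cluster PTHLH, of the placode and germ list, was among the leading genes and no basal marker was.

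**Figure D1:**
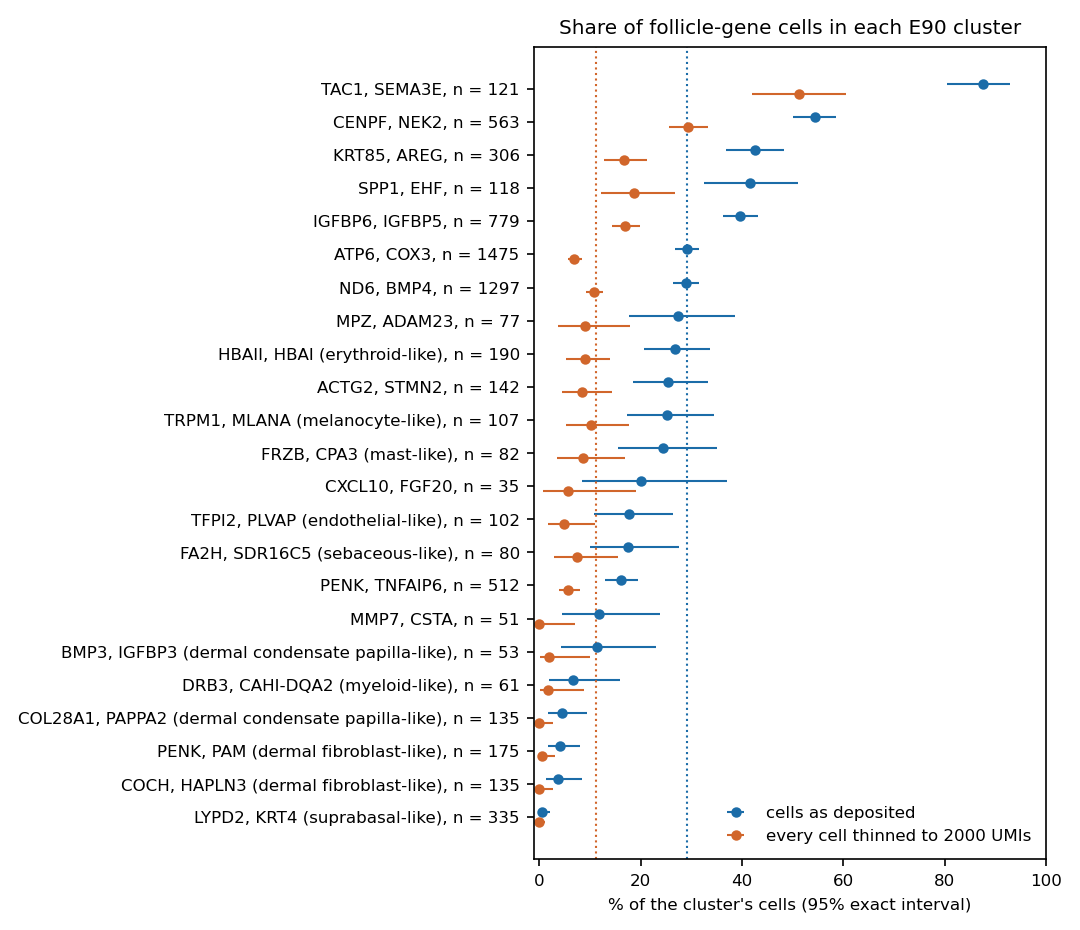
Share of follicle-gene cells (x axis, % of cells) in each of 23 E90 clusters formed without the rule genes (y axis, named by leading genes, with cell-type names where markers gave one), with exact 95% intervals, as deposited (blue) and with each cell thinned to 2000 UMIs (orange). Dotted lines mark 29.1% and 11.2%, the shares over the whole library. The TAC1-led and CENPF-led clusters lie above the other clusters on both scales.

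The rest of the members were spread over nearly the whole library. The 5 clusters named by endothelial, erythroid, myeloid, mast cell and melanocyte markers, cell types not known for these 6 genes together, held 120 follicle-gene cells among 542 (22.1%, 18.7% to 25.9%), at a median of 3534 UMIs per cell. This background share was not far below the 29.1% of the library. Thinned to 2000 UMIs, it was 7.56% (5.48% to 10.1%), against 51.2% in the TAC1-led cluster, 29.3% in the CENPF-led one, 18.6% in the SPP1-led one, 16.9% in the IGFBP6-led one and 16.7% in the KRT85-led one. The intervals of these 5 clusters lay above the background share at 2000 UMIs. These 5 clusters were named by markers and were not free of keratin RNA. KRT14 stood at 808 CPM in the erythroid-like cluster, which held 51 of the 120 cells, against 759 CPM over the library. It stood at 313 to 566 CPM in the others. KRT17 stood at 1624 to 2710 CPM in the 5, against 3332 CPM over the library. The background share is thus not that of cells free of epithelial RNA, and where that RNA sat was not tested. The background was not alike in all cell types. The 4 clusters named by dermal fibroblast or dermal condensate markers held 24 follicle-gene cells among 498 (4.82%), although their median depth of 5805 UMIs was higher. Only 4 of 61 myeloid-like cells met the rule (6.56%).

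The 2 largest clusters, the ATP6-led and the ND6-led, held 805 follicle-gene cells, 39.9% of all. The ATP6-led cluster was led by mitochondrial genes, while in the ND6-led cluster ND6 was followed by BMP4, INHBA, RRBP1 and NES. Their share of 29.0% equalled that of the library within counting error, and was 8.73% (7.71% to 9.84%) after thinning. The 2 clusters differed at that depth. The ATP6-led cluster, at 6.92% (5.67% to 8.33%), lay within the interval of the background clusters. The ND6-led cluster stood above that interval, at 10.8% (9.16% to 12.6%), though its own interval overlapped it. Cells of the ATP6-led cluster had a median of 18.1% mitochondrial UMIs, and those of the ND6-led cluster 10.8%, no higher than the rest of the library. Follicle-gene cells clustered alone, with the rule genes kept, gave 10 clusters. The largest, with 948 cells (47.0%), was led by DRB3, CAHI-DQA2, COL6A3, COL6A2 and SPARCL1, genes of antigen presentation and of dermal matrix, but only 1 fibroblast marker passed in it. The next was led by KRT4, itself a ceiling gene, LYPD2, ATP6 and COX3 (409 cells). The third was led by CENPF and PRC1 (305 cells) and the fourth by haemoglobin genes, CXCL10 and SPP1 (123 cells). Then came clusters led by TAC1 (117 cells) and KRT85 (37 cells). Of the others, 1 was led by the melanocyte genes TRPM1, PMEL and MLANA (26 cells), 1 by FRZB and GATA2 with mast cell markers (22 cells), 1 by the endothelial genes PLVAP and ESAM (17 cells) and 1 by FA2H and other sebaceous markers (13 cells). The leading genes of the melanocyte, mast cell and endothelial ones went against the label of follicle epithelium. For the sebaceous and the larger clusters they did not settle it.

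The 6 rule genes did not mark 1 and the same cluster. SEMA3E had its highest level in the TAC1-led cluster, at 990.1 CPM (923 to 1061), against 236 CPM (218 to 256) in the CENPF-led cluster and 72.0 CPM (48.6 to 103) in the endothelial-like cluster. AK8 went the other way. It stood at 97.9 CPM (86.1 to 111) in the CENPF-led cluster, with a UMI in 27.0% of cells, and at 3.70 CPM (0.764 to 10.8, 3 UMIs) in the TAC1-led cluster, with a UMI in 2.48% of cells. In the endothelial-like cluster 5.88% of cells had an AK8 UMI, at a median of 3604 UMIs per cell against 3837 and 6350 in the other two. The TAC1-led cells, the deepest of the 3, thus held AK8 at or below the background share.

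CHGA also had its highest level in the CENPF-led cluster, at 70.9 CPM (60.9 to 82.0), against 16.0 CPM (8.55 to 27.4, 13 UMIs) in the TAC1-led and 16.8 CPM (6.75 to 34.6) in the endothelial-like cluster. In a cluster that carried the Merkel cell markers KRT8, KRT20, POU4F3 and STMN2 beside smooth muscle genes, CHGA stood at 11.6 CPM. SOX9 was high in 4 clusters, at 1077 CPM in the SPP1-led, 986 CPM in the TAC1-led, 917 CPM in the KRT85-led and 734 CPM in a small MMP7-led cluster of 51 cells. It stood at 298 CPM in the CENPF-led cluster and 156 CPM in the endothelial-like one. LHX2 reached 370 CPM (330 to 415) and 365 CPM (342 to 389) in the TAC1-led and CENPF-led clusters, with overlapping intervals. It was 272 CPM in the KRT85-led cluster but 91.4 CPM (68.2 to 120) in the SPP1-led and 40.3 CPM (18.4 to 76.5) in the MMP7-led cluster, where the endothelial-like level was 98.4 CPM (70.6 to 133). PDGFA was 372 CPM in the TAC1-led, 341 CPM in the CENPF-led and 338 CPM in a cluster of 35 cells led by CXCL10 and FGF20, in which SOX9 was only 67.7 CPM.

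**Figure D2:**
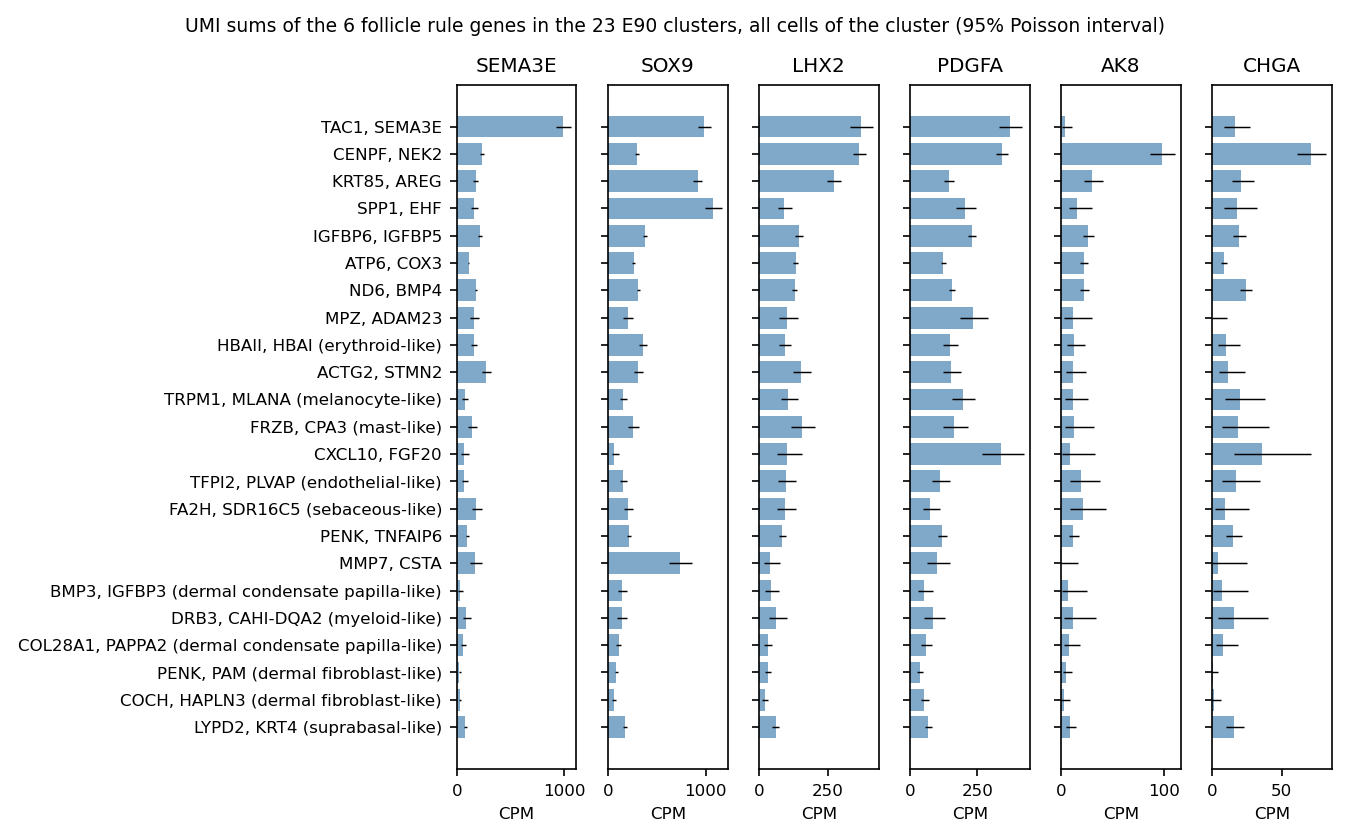
Level of each of the 6 rule genes (x axes, CPM of the UMI sum, from 0) in the 23 E90 clusters (y axis, same order as in the plot of shares), with 95% Poisson intervals. SEMA3E peaks in the TAC1-led cluster at 990.1 CPM, AK8 and CHGA in the CENPF-led cluster, and SOX9 is high in 4 clusters.

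Across the 23 clusters, SEMA3E and SOX9 followed each other most closely by rank (Spearman's rho 0.82, Pearson's r 0.79 on log2 levels), and LHX2 and PDGFA most closely by level (r 0.81, rho 0.79). AK8 and SOX9 were the least alike by level (r 0.21, rho 0.44). These clusters share 1 library, differ in depth and were formed from genes that vary with the rule genes, so the values are descriptions. Among the follicle-gene cells, 32.6% of the 430 with an AK8 UMI and 28.9% of the 329 with a CHGA UMI lay in the CENPF-led cluster, against 13.9% of the 1473 with a SEMA3E UMI. In the TAC1-led cluster lay 6.99% of the cells with SEMA3E and 0.698% of those with AK8.

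Some genes outside the rule had levels in order of the number of rule genes found, among all E90 cells below the ceiling, and others did not. ATP1B1, the beta subunit of the sodium pump, stood at 49.9, 66.5, 102, 136, 257, 317 and 500.1 CPM in cells with 0 to 6 rule genes. TFAP2B, an AP-2 transcription factor, stood at 129, 174, 223, 259, 360, 466 and 494 CPM in the same order. KRT17, a keratin of follicle epithelium, was 1828 CPM with 0 rule genes, 3823 CPM with 3 and 5834 CPM with 5, and was lower, at 3732 CPM, in the 21 cells with all 6. The fibroblast collagen gene COL1A1 ran the other way, at 1133, 869, 675, 536, 398, 322 and 237 CPM, and decorin (DCN) went from 1875 CPM with 0 to 474 CPM with 6. Cells with 2 and with 3 rule genes lie on either side of the threshold. In them LGR5 stood at 74.1 and 99.7 CPM. Several epithelial genes were highest with 4 rule genes. KRT14 stood at 466, 587, 784, 911, 934, 892 and 628 CPM with 0 to 6, BARX2 at 91.0, 132, 175, 216, 261, 214 and 96.2 CPM, and KRT15 at 99.1, 146, 181, 223, 252, 160 and 173 CPM. The median number of UMIs per cell moved along, from 3508 with 0 to 3871 with 3 and 6274 with 6 rule genes, and its part in these values was not tested.

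**Figure D3:**
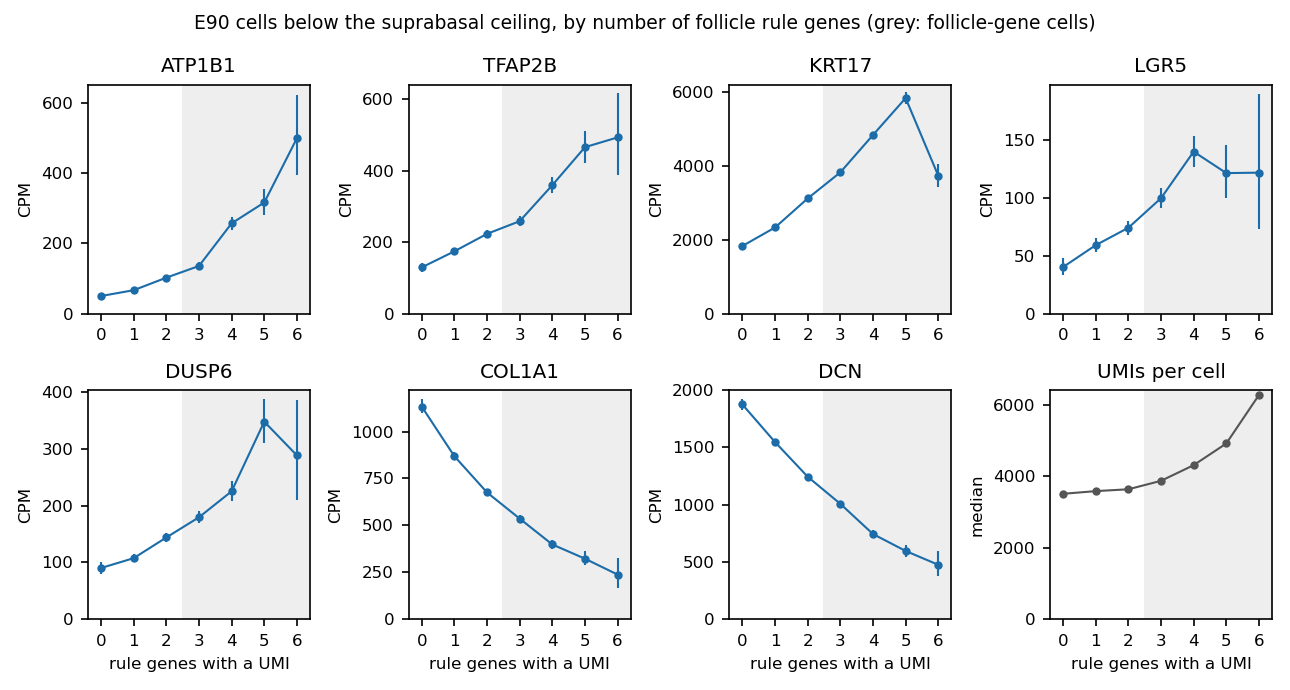
Level (y axes, CPM of UMI sums, 95% Poisson intervals) of 7 genes in E90 cells below the suprabasal ceiling, by the number of the 6 rule genes with a UMI (x axes), and the median UMIs per cell. Grey marks follicle-gene cells. ATP1B1 and TFAP2B are higher and COL1A1 and DCN lower with each further rule gene, on both sides of the threshold at 3, and depth is higher as well.

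Over all genes, the follicle-gene cells differed little from the other E90 cells. Of 6151 genes with at least 10 CPM in either group, 8 were at least 2-fold higher (0.13%) and 11 at least 2-fold lower (0.179%), on the log2 scale of (CPM + 10). Of the 8, 6 were the rule genes. The others were ATP1B1, at 197 CPM (188 to 206) against 81.6 CPM (77.7 to 85.6), a log2 ratio of 1.18, and KRT85, at 35.8 against 12.1 CPM, a log2 ratio of 1.05. Of the 11, 4 were ceiling genes and 3 carried no symbol. The others were the chemokine gene CXCL8, SPINK5, which encodes a protease inhibitor of the upper epidermis, LYPD2 and SERPINA12. Since the rule chose the cells on this contrast, these counts are not support for any property of the cells.

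Among genes of at least 100 CPM outside the rule, the 12 with the largest log2 ratios all had intervals apart from those of the other cells, as had 12% of all genes compared in this direction. LGR5, an R-spondin receptor known from follicle stem cells, stood at 115 CPM (108 to 122) against 60.7 CPM (57.4 to 64.2). DUSP6, a phosphatase induced by ERK signalling, stood at 212 against 116 CPM, and ERRFI1, a feedback inhibitor of the EGF receptor, at 231 against 156 CPM. TFAP2B was 314 against 183 CPM, and KRT17 4331 against 2859 CPM. CXCL14, a chemokine gene of epithelium, was 4029 against 2771 CPM. The Rac activator TIAM1 (226 and 147 CPM), the heparan sulphate proteoglycan SDC4 (100.2 and 65.4 CPM), COL14A1 (138 and 86.5 CPM), GSTM3 (103 and 62.4 CPM) and REEP4 (141 and 91.8 CPM) completed the list with ATP1B1.

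The 12 lowest ratios at the same limit of 100 CPM were those of LYPD2 and SPINK5 (74.3 against 173 CPM, and 197 against 406 CPM) and 10 further genes. The neuropeptide precursor PENK stood at 206 CPM (197 to 216) against 395 CPM (386 to 403). The collagen genes COL1A2 (421 and 707 CPM), COL6A3 (50.2 and 102 CPM) and COL4A1 (99.2 and 172 CPM) were lower, as were the growth factor gene IGF1 (104 and 188 CPM), the parathyroid hormone receptor gene PTH1R (126 and 214 CPM), SPARCL1 (159 and 294 CPM) and LRRC17 (195 and 326 CPM). ECM2 (70.7 and 124 CPM) and HS3ST6 (65.6 and 115 CPM) completed the list. The largest of these log2 ratios was 1.18 and the smallest −1.12. Among cells with at most 10% mitochondrial UMIs all 24 were larger in size, LGR5 at 1.44, LYPD2 at −2.11, SPINK5 at −1.56 and PENK at −1.44.

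**Figure D4:**
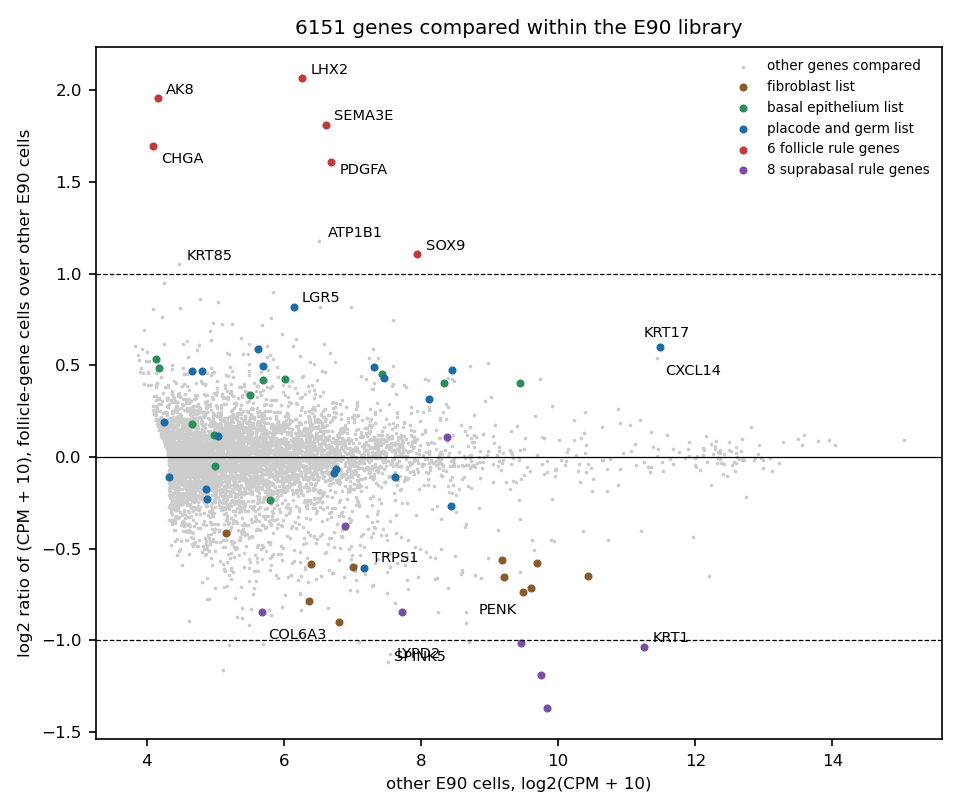
Log2 ratio of (CPM + 10), follicle-gene cells over other E90 cells (y axis), against the level in the other cells (x axis, log2(CPM + 10)) for 6151 genes, with the rule genes and 3 gene lists coloured and dashed lines at 2-fold. Outside the rule genes, ATP1B1 and KRT85 alone lie above the upper line. All 11 fibroblast genes lie below 0.

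Because so few genes passed 2-fold, lists were also counted at 1.25-fold, a limit set after the values had been seen. Over all genes 241 were at least 1.25-fold higher (3.92%) and 429 lower (6.97%). Of the 12 basal epithelium genes compared, 8 were higher by this limit and 0 lower, with a median log2 ratio of 0.41 against −0.00085 over all genes. KRT14 stood at 912 against 686 CPM, KRT5 at 418 against 313 CPM, KRT15 at 225 against 162 CPM, and TP63, the master transcription factor of stratified epithelium, at 15.5 against 7.64 CPM. The cadherin gene CDH1, at 24.5 against 21.7 CPM, did not reach it.

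Of the 20 placode and germ genes compared, 9 were at least 1.25-fold higher and 1 lower, with a median of 0.25, and 0 reached 2-fold. The 9 were LGR5, KRT17, PTHLH (64.0 and 39.2 CPM), NEDD9, the BMP and WNT modulator SOSTDC1 (213 and 149 CPM), the cyclin gene CCND1 (476 and 340 CPM), the ligand gene SHH (25.1 and 15.3 CPM), VDR and the homeobox gene BARX2 (228 and 167 CPM). TRPS1, which dermal cells also express, was the 1 that was lower, at 84.6 against 134 CPM. The WNT effector LEF1, a classic placode gene, did not differ by this limit, at 90.0 against 96.0 CPM. Other known placode genes were under the 10 CPM limit in both groups. The ectodysplasin receptor gene EDAR stood at 0.411 CPM (4 UMIs) against 0.681 CPM (14 UMIs), and the forkhead gene FOXI3 at 7.71 against 3.89 CPM. FGF20 stood at 5.35 against 5.30 CPM. The WNT ligand gene WNT10A, above the 10 CPM limit, stood at 15.7 against 19.1 CPM. The list was drawn up with earlier results of these data known.

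Pathways were read by role. In WNT signalling 5 of 30 genes were higher and 6 lower at 1.25-fold. The receptor genes LGR5, FZD7 (66.1 and 40.2 CPM) and FZD3 (33.2 and 24.1 CPM) were among the 5, while the ligand genes WNT5B (12.7 and 23.6 CPM), WNT11 (22.2 and 32.2 CPM) and WNT16 (12.1 and 19.7 CPM) were among the 6. The target gene AXIN2 stood at 38.9 against 40.0 CPM. In hedgehog signalling SHH alone of 8 genes passed, and the receptor and target gene PTCH1 stood at 284 against 296 CPM. In BMP and TGFβ signalling 3 of 27 genes were higher and 4 lower. The higher ones were the antagonist FST (246 and 184 CPM), the ligand gene TGFB3 (31.8 and 20.6 CPM) and the BMP-responsive ID4 (262 and 183 CPM). The lower ones included the ligand gene BMP3 (21.0 and 37.7 CPM) and INHBA (77.2 and 105 CPM).

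In FGF, EGF, PDGF and IGF signalling 4 of 14 genes were higher and 4 lower. The receptor gene EGFR, 1 of the 4, stood at 44.4 against 26.9 CPM. FGFR2, the epithelial FGF receptor, did not pass, at 162 against 139 CPM. The receptor of the rule gene PDGFA was lower: PDGFRA, a dermal gene, stood at 38.0 against 72.8 CPM. In Notch signalling 1 of 10 was higher, the ligand gene JAG2, at 110 against 73.7 CPM. Among the semaphorin, plexin and ephrin genes other than SEMA3E, 0 of 18 were higher and 4 lower, among them SEMA3A (13.2 and 24.7 CPM) and the co-receptor gene NRP1 (60.7 and 84.4 CPM). Of 5 EDA and NF-κB genes compared, none passed in either direction. Adhesion and basement membrane genes were split, 8 of 32 higher and 9 lower. The epithelial integrin gene ITGA6 (47.2 and 35.3 CPM), the hemidesmosome collagen gene COL17A1 (59.4 and 42.0 CPM) and the nephronectin gene NPNT (125 and 87.4 CPM) were higher, and COL4A1, COL4A2 (49.7 and 83.5 CPM) and the fibronectin gene FN1 (25.5 and 52.6 CPM) lower.

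Markers of some other cell types were lower in follicle-gene cells. All 11 fibroblast genes compared were at least 1.25-fold lower, with a median of −0.65, and their summed level (12 genes) was 3288 CPM in follicle-gene cells and 5228 CPM in the rest. Of 15 dermal condensate and papilla genes 11 were lower and 0 higher. All 4 melanocyte genes were lower, at a summed 63.7 against 124 CPM for the 10 genes of the list. The dermal collagen gene COL1A1 still stood at 467 CPM (771 CPM in the rest). The 12 endothelial genes summed to 89.7 against 118 CPM, but 0 of the 4 compared passed in either direction, as did 0 of 3 mural genes. The 10 myeloid genes summed to 18.5 against 35.5 CPM. Lists of other epithelium were partly higher, with 3 of 6 outer root sheath genes higher and 1 lower, and 2 of 4 sweat gland genes higher. The outer root sheath list shares LGR5 and KRT17 with the placode and germ list, so the counts of these lists are not separate. Haemoglobin HBAI stood at 1790 against 2367 CPM. Where these RNAs sat, in the cells or in the fluid around them, was not tested, and in sums of this kind fewer cells of a type and less RNA per cell cannot be told apart.

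Most genes of the cell cycle did not pass. Of 15 S phase genes 3 passed 1.25-fold and of 27 G2 and M phase genes 4 did, with medians of 0.18 and 0.20 and none lower. MCM5 stood at 94.4 against 67.1 CPM and CENPF at 193 against 147 CPM. Of 5 late shaft and inner root sheath genes compared, 3 were higher: KRT85, the shaft regulator HOXC13 (19.2 and 9.10 CPM) and the inner root sheath regulator GATA3 (200.2 and 149 CPM). Of the 20 genes induced by dissociation 2 were higher and 1 lower, with a median of 0.03.

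Inside clusters, follicle-gene cells were set beside the other cells of the same cluster. In the CENPF-led cluster the 306 follicle-gene cells stood apart: ATP1B1 was 304 CPM (277 to 333) against 86.4 CPM (69.4 to 106), TFAP2B 434 against 238 CPM, KRT17 4013 against 2578 CPM and LGR5 136 against 72.9 CPM. COL1A1 was lower in them, at 308 CPM (281 to 337) against 628 CPM (580.3 to 678), and DCN at 546 against 1121 CPM. Their median depths were 4083 and 3576 UMIs. In the ATP6-led cluster the 430 follicle-gene cells and the other 1045 lay close together. KRT17 was 2843 CPM (2771 to 2916) against 2712 CPM (2662 to 2762), with intervals just apart. ATP1B1 was 68.4 CPM (57.6 to 80.6) against 62.5 CPM (55.2 to 70.6), TFAP2B 193 against 190.0 CPM, KRT14 584 against 612 CPM and COL1A1 553 against 557 CPM, these 4 with overlapping intervals. The ND6-led cluster lay between, with ATP1B1 at 162 against 91.3 CPM but COL1A1 at 684 (643 to 728) against 739 CPM (710 to 769).

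In the KRT85-led cluster, LHX2 differed by far more than SOX9 between follicle-gene cells and the rest, at 429 against 114 CPM and 926 against 908 CPM, both rule genes. Outside the rule, TFAP2B (474 and 260.2 CPM) and DUSP6 (416 and 233 CPM) were higher in its 130 follicle-gene cells, while KRT17 was 11788 CPM against 12271 CPM in the other 176 cells. In the IGFBP6-led cluster ATP1B1 was 183 CPM (162 to 206) in the 309 follicle-gene cells against 116 CPM (101 to 132) in the other 470, and KRT14 was 1389 against 1490.4 CPM. In the SPP1-led cluster ATP1B1 was 183 CPM (134 to 243) against 173 CPM (130 to 226), with overlapping intervals. In the endothelial-like cluster the 18 follicle-gene cells held more keratin RNA than the other 84, with KRT17 at 3366 CPM (2988 to 3779) against 1424 CPM (1298 to 1558) and KRT14 at 751 against 299 CPM. Their endothelial markers summed to 1724 CPM. These 18 cells had a median of 4575 UMIs against 3518 UMIs in the rest of that cluster.

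**Figure D5:**
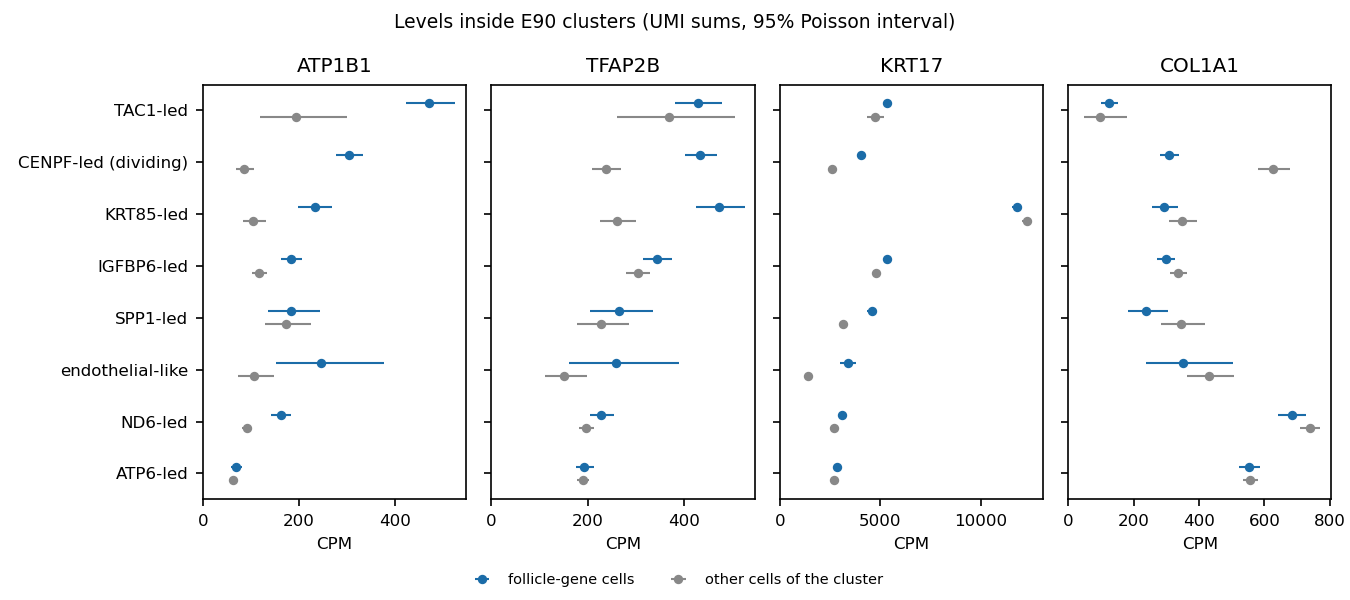
Levels of ATP1B1, TFAP2B, KRT17 and COL1A1 (x axes, CPM of UMI sums, 95% Poisson intervals) in follicle-gene cells (blue) and in the other cells (grey) of 8 E90 clusters (y axis). The intervals of the 2 groups lie apart for all 4 genes in the CENPF-led cluster. In the ATP6-led cluster they overlap for all but KRT17 (2843 and 2712 CPM).

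The follicle-gene cells of the clusters with the highest shares were unlike each other. The 106 cells of the TAC1-led cluster had CXCL14 at 9289 CPM, against 4543 CPM in the CENPF-led and 2220 CPM in the KRT85-led follicle-gene cells. LGR5 stood at 263 CPM (227 to 304) in the TAC1-led cells. It stood at 136 CPM (118 to 155) in the CENPF-led cells and at 83.7 CPM (64.2 to 107) in the KRT85-led cells. In the same order ID4 was 611, 243 and 339 CPM, and PTHLH, which encodes a hormone-like signal to the dermis, was 262, 51.6 and 28.3 CPM. They also had the lowest COL1A1 of the 3, at 124 CPM, and COL17A1 at 160 CPM. SHH, by contrast, was at 1.41 CPM (1 UMI) there and 38.4 CPM (29.1 to 49.6) in the CENPF-led cells, whose PTCH1 was 335 CPM against 187 CPM. LEF1 was 31.1 CPM in the TAC1-led and 73.4 CPM in the CENPF-led cells.

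The 130 KRT85-led follicle-gene cells held KRT17 at 11788 CPM, SOSTDC1 at 498 CPM and the Notch target gene HES1 at 852 CPM, against 208 CPM of HES1 in the TAC1-led cells. The 49 SPP1-led follicle-gene cells held KRT15 at 989 CPM and KRT19 at 253 CPM, and their periderm list summed to 2173 CPM against 464 CPM in the TAC1-led cells. The sweat gland list, which shares keratin genes with the periderm list, summed to 1893 CPM against 300 CPM. The lists do not tell these cell types apart here. These genes helped to form the clusters, so the differences describe them. The G2 and M phase genes summed to 4143 CPM in the CENPF-led follicle-gene cells and to 639 CPM in the TAC1-led ones.

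Without the ATP6-led and ND6-led clusters, in a comparison added after the data had been seen, the 1212 remaining follicle-gene cells differed more from the 2947 other cells. Of 6375 genes, 17 were at least 2-fold higher (0.267%) and 55 lower (0.863%). The 10 named genes outside the rule among the 17 were ATP1B1 (249 and 85.3 CPM), KRT85, LMCD1, LGR5 (120 and 47.7 CPM), TAC1, NPPC, DUSP6 (258 and 117 CPM), TFAP2B (375 and 178 CPM), BNC1, a basal keratinocyte transcription factor gene (54.4 and 21.4 CPM), and CBLN4. LMCD1, TAC1, NPPC and CBLN4 had their highest levels in follicle-gene cells of the TAC1-led cluster, among the clusters set out here, at 409, 248, 157 and 130 CPM. Of 21 placode and germ genes 1 was now 2-fold higher, LGR5, and of 11 fibroblast genes 5 were 2-fold lower. Without the ATP6-led cluster alone, 11 genes were 2-fold higher and 19 lower.

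Set against other E90 keratinocytes, the picture depended on the group. Against the 530 cells with a suprabasal sum of 100 or more, 49 of 6261 genes were at least 2-fold higher (0.783%) and 175 lower (2.8%) in follicle-gene cells. LYPD2 stood at 74.3 against 920.3 CPM and SPINK5 at 197 against 1816 CPM. Both belong to the differentiating layers, as do the 8 ceiling genes that chose the 530 cells. Sums of several epithelial lists were no higher in follicle-gene cells. Basal epithelium stood at 1883 against 2383 CPM and placode and germ at 6716 against 6740 CPM. Outer root sheath stood at 5070 against 5460 CPM and late shaft at 298 against 309 CPM. KRT17, on both the placode and germ and the outer root sheath list, made up most of those sums. The other genes of each of those lists together were higher in follicle-gene cells. KRT17 (4331 against 4962 CPM) and TIAM1 (226 against 244 CPM) were higher in the 530 cells. ATP1B1, LGR5, DUSP6, TFAP2B, GSTM3, COL14A1, REEP4, SDC4, ERRFI1 and CXCL14, also named above for their large log2 ratios, were lower there. A group of basal cells chosen on 3 or more of COL17A1, ITGA6, ITGB4, TP63, LAMB3 and KRT15, with at most 1 follicle rule gene, held only 56 cells. Against them 218 of 6429 genes were at least 2-fold higher (3.39%) and 51 lower (0.793%). The 56 cells held 240219 UMIs in all, so genes near the 10 CPM limit rested on few UMIs there. These counts were not set against counting error, which is wide in so small a group. ATP1B1 and LGR5 had log2 ratios of 1.43 and 1.27 in that comparison, while those of most of the other named genes were nearer 0 than against all other cells. TFAP2B was at 0.10 in place of 0.75, ERRFI1 at 0.09 in place of 0.54, KRT17 at 0.18 in place of 0.60 and GSTM3 at 0.28 in place of 0.64.

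The same rule was applied to the other stages. At E60, 5 of 6849 cells met it (0.0730%, 0.0237% to 0.170%), although the median depth there was 8579 UMIs. The E60 library held hardly any keratin RNA. KRT14 had 0 UMIs, KRT5 stood at 0.261 CPM and KRT17 at 2.63 CPM. Over the whole E90 library these genes stood at 759, 347 and 3332 CPM. The E60 share therefore says little about epithelium at that stage. At E120, 623 of 6896 cells did (9.03%, 8.37% to 9.74%). Thinned to 2000 UMIs, the counts were 0, 773 and 134 cells at E60, E90 and E120, or 0% (upper limit 0.0538%), 11.2% and 1.94%. Stage, dissection, dissociation and depth cannot be told apart between E120 and the others, and E60 and E90 differ in depth and in keratin RNA.

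At E120 the cells that met the rule differed more from the rest of their library than at E90. Of 5313 genes, 59 were at least 2-fold higher (1.11%) and 51 lower (0.96%), rule genes included. ATP1B1 stood at 66.7 CPM (61.2 to 72.6) against 10.4 CPM (9.71 to 11.1), LGR5 at 37.2 against 3.28 CPM, KRT17 at 1955 against 459 CPM and CXCL14 at 2512 against 581 CPM. SHH was 90.8 against 24.9 CPM. Of the 12 genes named above as higher at E90, 11 were higher at E120 as well with intervals apart, as were 29.4% of all 5313 genes compared in that deeper library, and DUSP6 was lower, at 79.3 against 88.5 CPM. KRT85 also went the other way than at E90, at 3899 CPM in the cells that met the rule and 7069 CPM in the rest, in a library made of dissected follicles.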

How the data were processed

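The deposited table holds natural log values per gene and cell, made by the authors with Cell Ranger 3.0.2, per the submitters' processing notes. With the log undone, the total per cell was 10000. Within a cell, 100% of nonzero values were whole multiples of the smallest (tolerance 0.01). Taking that smallest value as 1 UMI gave the counts. Genome build, annotation and filters are not given in the sources used here. The table holds 16739 genes, 12709 with a symbol, and 522 of the 539 listed genes found in it are in RefSeq's ARS1.2 list, used for names only. The libraries hold 65049552 (E60), 30277663 (E90) and 93403291 (E120) UMIs, and they share 9 to 13 barcodes pairwise.

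UMIs were summed per group and given as CPM with exact Poisson intervals, and shares with Clopper-Pearson intervals. Genes with at least 10 CPM in either group were compared by log2 of (CPM + 10). Genes were named by a rule: the 12 highest and the 12 lowest log2 ratios among genes of at least 100 CPM, without rule, mitochondrial, haemoglobin and ribosomal genes and genes with no symbol, plus paired ligands, receptors and targets of pathways. Genes named for passing or missing 1.25-fold, those past 2-fold without the ATP6-led and ND6-led clusters and those told apart by cluster were chosen after their values had been seen. Clusters of the whole E90 library were formed without the 14 rule genes, from 1986 variable genes, 30 components, 20 neighbours and Leiden resolution 1 (Python 3.11.15 with scanpy 1.11.5, scikit-learn 1.9.0 and leidenalg 0.10.2). Clusters of the follicle-gene cells alone kept the rule genes, with 2000 variable genes, 20 components, 15 neighbours and resolution 0.5. A cluster was named from at least 3 markers that were 2-fold higher and in 10% of its cells, with no other class ahead among its 10 leading genes. The placode and germ list and the late shaft list counted as classes only in that last condition. This scoring, the clustering without rule genes and the 1.25-fold limit were set after the data had been seen. Members and gene lists were chosen with earlier results of these data known. No doublet caller was run and no cell was removed. The log2 ratio was run on simulated sums with large set changes and counting error only, with no choice of cells on their values. It does not check small differences between groups chosen on their own values. Alternatives are given in the closing section.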

Additional observations from a re-analysis of the deposited data

How the results depend on the processing

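The number of follicle-gene cells, 2017, depended on the rule and the depth: 3921 cells with at least 2 rule genes, 768 with at least 4, 773 after thinning to 2000 UMIs, 793 with at most 10% mitochondrial UMIs and 1212 without the ATP6-led and ND6-led clusters (1587 without the ATP6-led alone, chosen, like the pair, after the data had been seen). A suprabasal limit of 50 or 200 gave 1823 and 2075. The 8 genes at least 2-fold higher became 27 with at most 10% mitochondrial UMIs, 218 against basal-rule cells, 23 with a pseudocount of 1 CPM and 17 without the 2 clusters. The 11 genes at least 2-fold lower became 22 with at least 4 rule genes, 6 with a suprabasal limit of 200, 61 with at most 10% mitochondrial UMIs, 51 against basal-rule cells, 2 when each cell had the same weight, 34 with a pseudocount of 1 CPM 55 without the 2 clusters and 19 without the ATP6-led alone. Placode and germ genes at 2-fold went from 0 to 2, 3 and 1 with at most 10% mitochondrial UMIs, against basal-rule cells and without the 2 clusters, and to 1 without the ATP6-led alone. The basal-rule group held only 240219 UMIs, so counts against it carry wide counting error. The causes were not tested. After thinning, the highest share in a cluster was 51.2% in place of 87.6% (88.6% and 87.8% at resolutions 0.5 and 2), and the endothelial-like share 4.90% in place of 17.6%.

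Of the 24 named genes, 3 reversed in sign in 1 setting, against the 56 basal-rule cells: COL14A1 at −0.35, LYPD2 at 0.14 and HS3ST6 at 0.24 (log2). Few UMIs of these genes were counted in that group, which held 240219 UMIs over all genes. Its counting error was not set against these ratios, so the reversals are not resolved. Beyond the counting error of the main comparison, all 24 moved with at most 10% mitochondrial UMIs and without the 2 clusters (LGR5 from 0.82 to 1.44 and 1.17, LYPD2 from −1.12 to −2.11 and −1.89). So did 19 without the ATP6-led cluster alone, 19 with equal weight per cell, 17 after thinning, 17 with at least 4 rule genes and 15 with at least 2. A pseudocount of 1 CPM, median-of-ratios scaling and leaving out shared barcodes moved none. No paired analysis was possible because each stage is 1 library and cells carry no fetus label. A median depth of 4040 UMIs limits detection of AK8 and CHGA in single cells. Sensitivity to doublets was not run.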
